A study of Mus musculus with 26 samples.

Results

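Distal open regions without CTCF were the regions of the pooled M-ATAC peak list of mouse embryonic stem cells (mESC) that lay more than 3 kb from every annotated transcription start and did not overlap a peak of the pooled CTCF M-ChIP list. M-ATAC is ATAC-seq, which cuts and tags open chromatin with the Tn5 transposase, done with methylated adaptors and followed by bisulfite conversion, so that the same reads mark accessible DNA and report the methylation of its cytosines. The rule took 35628 of the 66726 distinct M-ATAC regions, or 53.4%. The remaining regions were 22639 open promoters without CTCF, 4631 distal open regions with CTCF and 3828 open promoters with CTCF, where a promoter is any region within 3 kb of a start. Distances were counted from the edge of a region to the starts of GENCODE M21 transcripts on mm10. The 1126 members closest to the limit, at up to 3500 bp from a start, had a median fold enrichment of 6.54 and a mean methylation of 9.81%, and the 1180 regions without CTCF just below it, in a span of equal length, had 6.36 and 8.69%.

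The labels give the mESC line KH2 for all samples. KH2 cells were grown on irradiated feeder cells with serum and the cytokine LIF and separated from the feeders by pre-plating, while for the KLF4 knockout cells the study's methods do not name the line. M-ATAC was deposited for 4 samples, libraries with methylated adaptors that were not converted (M-ATAC-NC) for 2, and ATAC-seq with the usual Nextera adaptors (ATAC) for 2. CTCF was profiled in 2 samples each of CTCF M-ChIP (methylated adaptors, converted), CTCF M-ChIP-NC (not converted) and CTCF ChIP (Nextera adaptors). By the study's methods an unconverted control is a portion of the same tagmented DNA as a converted sample, and which samples share a preparation is not given. The KLF4 peak lists are recorded with samples of cells without Klf4 (KLF4-ChIP-KO, 2 samples) and the same knockout re-expressing WT Klf4 (M-ATAC-WT, 2 samples) or the R462A mutant (M-ATAC-Mut, 2 samples) from a doxycycline-induced lentivirus. RNA-seq of WT mESC was given as 1 merged column from 2 samples. In that column the 6 stem cell markers Pou5f1, Sox2, Nanog, Esrrb, Zfp42 and Dppa5a lay between 229 and 5393.8 TPM, a level scaled to transcript length and to a fixed library total. The 7 feeder fibroblast markers Thy1, Col1a1, Col1a2, Col3a1, Postn, Dcn and Lum lay between 0.08 and 48.7 TPM, with Lum lowest and Col1a1 highest, and the part of remaining feeder cells in the other values was not tested. The samples' own accessibility lists held 24113 to 32999 peaks, their CTCF lists 22261 to 49633 and their KLF4 lists 5544 to 14263, and no accessibility or CTCF list was brought to a common depth here. The labels do not say whether replicates came from separate cultures, so the spread between them may be technical.

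Open chromatin away from promoters holds enhancers, the elements at which transcription factors bind and act on genes at a distance, and in stem cells many are bound by OCT4 (encoded by Pou5f1), SOX2, NANOG, ESRRB and the KLF factors. CTCF, the zinc finger protein that anchors chromatin loops and insulates domains, marks a separate class of distal sites. Active enhancers usually carry less CpG methylation than the surrounding genome but more than CpG island promoters, because they are poor in CpG and their methylation turns over.

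The sequences of a few members are shown first, because the values below turn on the motifs and CpGs they hold. Each is the 200-bp window at the strongest summit, on the plus strand of GRCm38 (mm10). In the first 5 windows, from members near genes of stem cell factors, capitals mark matches to the short words searched (GGGTGTGG for KLF factors, ACAAAG and ACAATG for SOX factors, TGANTCA for AP-1 and GATAAG for GATA factors, each read on both strands, so that a match on the minus strand appears as its reverse complement). The windows lie at chr1:13104007-13104206, chr8:43320806-43321005, chr2:168791149-168791348, chrX:86187354-86187553 and chr17:35490416-35490615, and all 5 are in intergenic DNA. In the Nr0b1 window an ACAATG match and a TGANTCA match overlap.
Prdm14 member: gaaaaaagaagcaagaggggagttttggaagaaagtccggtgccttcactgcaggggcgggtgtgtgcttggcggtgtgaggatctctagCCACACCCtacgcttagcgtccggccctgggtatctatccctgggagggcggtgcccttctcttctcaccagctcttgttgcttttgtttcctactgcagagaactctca
Zfp42 member: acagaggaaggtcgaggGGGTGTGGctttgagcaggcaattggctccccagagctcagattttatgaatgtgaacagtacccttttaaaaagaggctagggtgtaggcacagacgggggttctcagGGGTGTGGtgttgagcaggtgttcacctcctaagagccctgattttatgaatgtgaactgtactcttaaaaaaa
Sall4 member: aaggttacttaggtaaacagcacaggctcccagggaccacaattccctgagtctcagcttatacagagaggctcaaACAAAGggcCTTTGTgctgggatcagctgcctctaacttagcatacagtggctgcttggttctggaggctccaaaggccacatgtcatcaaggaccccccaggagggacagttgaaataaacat
Nr0b1 member: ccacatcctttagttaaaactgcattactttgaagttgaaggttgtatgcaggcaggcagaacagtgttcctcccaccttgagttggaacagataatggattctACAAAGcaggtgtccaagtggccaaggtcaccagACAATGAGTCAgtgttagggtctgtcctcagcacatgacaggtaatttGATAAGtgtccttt
Pou5f1 member: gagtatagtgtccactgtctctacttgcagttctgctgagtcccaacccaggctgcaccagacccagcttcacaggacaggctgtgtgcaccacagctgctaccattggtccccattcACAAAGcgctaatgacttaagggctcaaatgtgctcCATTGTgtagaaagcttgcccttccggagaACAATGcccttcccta

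In the next 3 windows capitals mark every CpG, to set a nearly unmethylated member beside 2 highly methylated ones. The Fer member, at chr17:63849685-63849884 in intergenic DNA, had 3 methylated reads among 986 on 35 cytosines (0.304%). The Cdk14 member, at chr5:5237576-5237775 in an intron of Cdk14, had 38 of 47 on 7 cytosines (80.9%). The third, at chr17:31930050-31930249 in intergenic DNA 74.2 kb from Sik1, the nearest protein-coding start, had 56 of 74 on 8 cytosines (75.7%). The Fer window held 12 CpGs, the Cdk14 window 7 and the last 4.
Fer member: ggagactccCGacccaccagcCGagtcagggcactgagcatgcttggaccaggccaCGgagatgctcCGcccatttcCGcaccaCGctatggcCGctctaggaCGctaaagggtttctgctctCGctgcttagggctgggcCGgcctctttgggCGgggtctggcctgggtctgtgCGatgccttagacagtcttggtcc
Cdk14 member: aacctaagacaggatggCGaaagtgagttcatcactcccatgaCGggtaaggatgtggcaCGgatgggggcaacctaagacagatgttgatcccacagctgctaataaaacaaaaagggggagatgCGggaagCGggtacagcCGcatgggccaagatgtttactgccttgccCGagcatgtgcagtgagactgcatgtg
Sik1 member: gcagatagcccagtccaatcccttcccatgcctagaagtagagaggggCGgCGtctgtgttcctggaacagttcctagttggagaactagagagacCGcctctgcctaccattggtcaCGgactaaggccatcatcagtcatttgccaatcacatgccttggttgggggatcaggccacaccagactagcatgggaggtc

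The members were narrow, CpG-poor regions spread over introns and intergenic DNA. Their median width was 257 bp (quartiles 181 and 377) and together they covered 10.7 Mb. They were narrower than promoters without CTCF, with a median of 360 bp, and wider than distal regions with CTCF, with 209 bp. By the annotation 17755 members (49.8%) were intergenic, 16057 (45.1%) intronic and 1816 (5.1%) touched an exon of a transcript whose start lay farther away. Their median CpG density was 0.984 per 100 bp, against 1.74 in distal regions with CTCF and 4.93 in promoters without CTCF, and 4969 members (13.9%) held no CpG at all. GC content followed the same order, with medians of 49.4%, 53.3% and 59.3%. Repeats as soft-masked in the reference made up at least 50% of the bases of 16.9% of the members, 4.84% of the distal regions with CTCF and 4.33% of the promoters without CTCF.

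The median distance to the nearest start was 15311 bp, and the farthest member lay 641069 bp away. Of the members 11.9% lay 3 to 5 kb away, 22.7% at 5 to 10 kb, 24.6% at 10 to 20 kb, 25.3% at 20 to 50 kb, 10.5% at 50 to 100 kb and 4.95% farther. Farther members were poorer in CpG and richer in repeats. Median CpG density was 1.11 per 100 bp at 3 to 5 kb and 0.611 beyond 100 kb, and the share of mostly masked members was 15.2% and 29.5%. The median fold enrichment over the local background, as MACS2 gives it, was 6.31 at 3 to 5 kb and 7.07 beyond 100 kb. Over all members it ranged from 2.29 to 36.7 with a median of 6.66, below the 7.07 of distal regions with CTCF and the 7.83 of promoters without CTCF. These folds come from the pooled list, which has no replicates.

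The question whether the members recur in separate samples was put to each sample's own peak list. A member counted as found where a peak overlapped it by at least 1 bp. In M-ATAC replicates 1 to 4, 31.6%, 35.9%, 38.8% and 36.8% of the members were found. The pooled list came from merged M-ATAC replicates. The paper describes M-ATAC in duplicate, and which of the 4 deposited samples were merged is not given. In M-ATAC-NC replicates 1 and 2 these shares were 35.6% and 40.6%, and in ATAC replicates 1 and 2 they were 27.3% and 35.8%. ATAC replicate 1, which also had the shortest list, was lowest, M-ATAC-NC replicate 2, with the longest, was highest, and the ranges of the 3 groups overlapped. The mean was 35.8% ± 3.05 (SD, n = 4) in M-ATAC, 38.1% ± 3.48 (n = 2) in M-ATAC-NC and 31.5% ± 6.02 (n = 2) in ATAC. M-ATAC minus M-ATAC-NC was -2.32 points, M-ATAC minus ATAC 4.23 points and M-ATAC-NC minus ATAC 6.56 points. These differences are given with no test, because merged M-ATAC samples chose the members and the M-ATAC-NC libraries come from M-ATAC preparations. Leaving out M-ATAC-NC replicate 2 turned the first difference to 0.14 points, and leaving out ATAC replicate 1 turned the second to -0.0225.

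In the ATAC lists, the only accessibility lists from separate preparations, members were found more often than distal regions with CTCF and less often than promoters. ATAC replicates 1 and 2 found 27.3% and 35.8% of the members, 20.5% and 28.7% of the distal regions with CTCF and 49.1% and 57.9% of the promoters without CTCF. With only these 2 samples no test could pass a threshold. Over the 4 ATAC and M-ATAC-NC samples together the member share averaged 34.8% ± 5.52 (SD), against 26.2% ± 4.27 for distal regions with CTCF, and the members were ahead in 4 of 4 samples, by 6.77 to 10.4 points. The mean within-sample difference was 8.6 points ± 1.94. Since the M-ATAC-NC samples come from M-ATAC preparations, only the 2 ATAC samples in these means are separate from the choice of members. Promoters without CTCF were found at 56.6% ± 5.79, and the members were behind in all 4 samples, by 20.8 to 22.5 points (mean -21.8 ± 0.736). The plot of regions found in each list gives every sample.

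**Figure D1:**
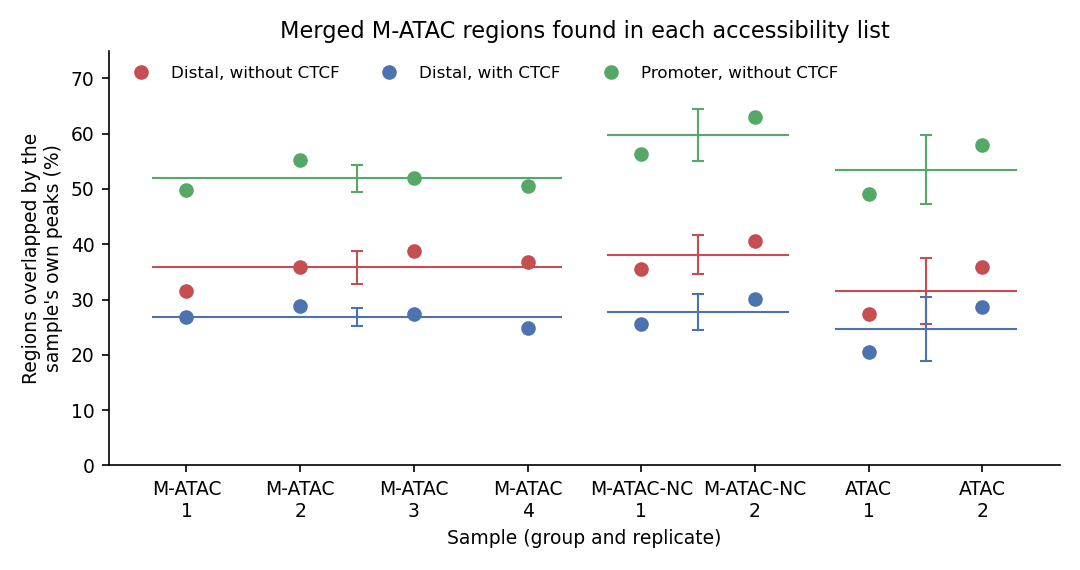
Share of regions (y axis, %) overlapped by each sample's own peaks (x axis, group and replicate), for distal regions without CTCF, distal regions with CTCF and promoters without CTCF. Points are samples, horizontal lines group means and vertical bars ± 1 SD; in all 8 samples distal regions without CTCF lie between the other kinds, from 27.3% to 40.6%.

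Recovery rose steeply with fold enrichment, and the order of the 3 kinds of region was kept over most of that range. Among members of fold up to 5 the M-ATAC-NC and ATAC lists found 9.59% ± 3.38 (SD, n = 4). Among those of 7 to 10 they found 38.9% ± 7.99, and among those over 20 they found 95.4% ± 1.2. In these means too only the 2 ATAC samples are separate preparations. At a fold of 7 to 10, 26.6% ± 4.78 of the distal regions with CTCF and 59.1% ± 7.71 of the promoters without CTCF were found. At a fold up to 5 the order of the distal classes turned, with 10.4% ± 2.73 for regions with CTCF, a difference within the spread between samples. Restricted to regions of fold 5 to 10, the members exceeded distal regions with CTCF by 7.17 points and fell 19.5 points short of promoters.

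Over the 8 accessibility lists together, 4370 members (12.3%) were found in all 8, against 18.4% of all M-ATAC regions. Another 10098 (28.3%) were found in none, so that they were called only in the pooled reads. Of the distal regions with CTCF, 7.39% were found in all 8 lists and 35.7% in none. These shares were 29.1% and 15.9% for promoters without CTCF, and 25.9% and 20.4% for promoters with CTCF. Members found in all 8 lists had a median fold of 14.5 and a width of 503 bp, and those found in none 4.99 and 170 bp. Their median CpG densities were alike, at 0.908 and 0.99 per 100 bp. The 3 members of highest fold among those found in all 8 lists lay on chromosomes 18, 13 and 13, with folds of 32.2, 32 and 31.2, in intergenic DNA 41.5 to 88.1 kb from the nearest start. Repeats made up 82.8%, 78.5% and 58.2% of their bases. Their methylation, pooled over reads, was 4.59%, 10.3% and 2.42%, on 11, 4 and 8 cytosines.

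Few members had a CTCF peak in the samples' own lists, as the rule largely fixed by removing regions with a pooled CTCF M-ChIP peak. The values show how much CTCF signal the rule left. CTCF M-ChIP-NC replicates 1 and 2 had a peak in 0.073% and 0.241% of the members, and CTCF ChIP replicates 1 and 2 in 0.719% and 1.69%. The CTCF ChIP lists were higher, without overlap, by 1.05 points on average, and they were also the longer lists. This difference is given with no test, because CTCF M-ChIP-NC shares its preparation with the samples whose peaks the rule removed. The same CTCF ChIP lists covered 96.1% and 99% of the distal regions with CTCF. In all, 679 members (1.91%) had a peak in at least 1 of the 6 CTCF lists, which include the CTCF M-ChIP lists, and 229 (0.643%) in both CTCF ChIP lists. The 7-base core of the CTCF motif, AGGGGGC, lay in 3.36% of the member windows, in 18.5% of those of distal regions with CTCF and in 7.34% of all. Since CTCF peaks sorted the regions, the contrast between the distal classes is no separate evidence.

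Methylation of the members was low, and on every chromosome it was above that of the other classes. It was read from the merged M-ATAC table, which counts methylated and unmethylated reads at CpG cytosines of the pooled samples, so it has no replicates and no test between classes. Each cytosine was taken once, with at least 5 reads. This left 150373 cytosines in 26372 members, with a median of 8 reads, and 9256 members without a measured cytosine. The mean over cytosines was 11.8%, and by chromosome it ran from 7% on chromosome X to 15% on chromosome 3. Pooled over reads it was 9.09% (95% Wilson interval 9.05 to 9.14, covering counting error only, as for all intervals here). Distal regions with CTCF had a mean of 6.87%, 4.95 points lower, and members were above them on 20 of 20 chromosomes, by 3.03 to 8.14 points. Promoters without CTCF had 1.17% and were lower on all 20 chromosomes, by 6.22 to 13.5 points.

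Most member cytosines were unmethylated and few were fully methylated. Of them 113677 (75.6%) were below 20%, 35444 (23.6%) between 20% and 80% and 1252 (0.833%) above 80%, and 56.4% had no methylated read. In distal regions with CTCF these shares were 86.3%, 13.4% and 0.356%, and in promoters without CTCF 98%, 1.99% and 0.0469%. At 5 reads a cytosine can move only in steps of 20%. Taken by region, 10434 members had at least 5 such cytosines. Their median was 6.61% (quartiles 1.98 and 16.7), 2117 of them (20.3%) were at 20% or more, against 9.64% of all regions with as many cytosines, and 225 (2.16%) were at 50% or more. In distal regions with CTCF the shares were 10.3% and 0.744%.

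The level depended strongly on read depth. Members averaged 14.8% at cytosines of 5 to 9 reads, 7.88% at 10 to 19, 3.32% at 20 to 49 and 1.35% at the 546 cytosines of 50 reads or more. Distal regions with CTCF passed from 8.54% to 4.62%, 2.45% and 1.56% over the same classes, and promoters without CTCF from 1.74% to 0.816%, 0.397% and 0.281%. The lead of members over distal regions with CTCF thus shrank with depth and was not present in the deepest class. Depth here is also accessibility, since reads come from open DNA, and the 2 cannot be told apart in this table.

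Methylation also fell with CpG density. In members with up to 1 CpG per 100 bp the mean was 16.5%, at 2 to 3 it was 11.4%, at 4 to 6 it was 7.68% and above 8 it was 1.31%. Median depth was 8 or 9 reads in each of these classes. At more than 8 CpGs per 100 bp distal regions with CTCF had 1.39% and promoters without CTCF 0.409%, and the distal classes were then close. When depth and density were held together, members were above distal regions with CTCF in 15 of 21 classes with at least 100 cytosines on each side, and above promoters in 22 of 22. At 5 to 9 reads and 2 to 3 CpGs per 100 bp, for example, the means were 14.3%, 9.63% and 9.8%. At 20 to 49 reads and 1 to 2 CpGs the order of the distal classes was reversed, with 4.19% in members, 5.02% in distal regions with CTCF and 3.12% in promoters.

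**Figure D2:**
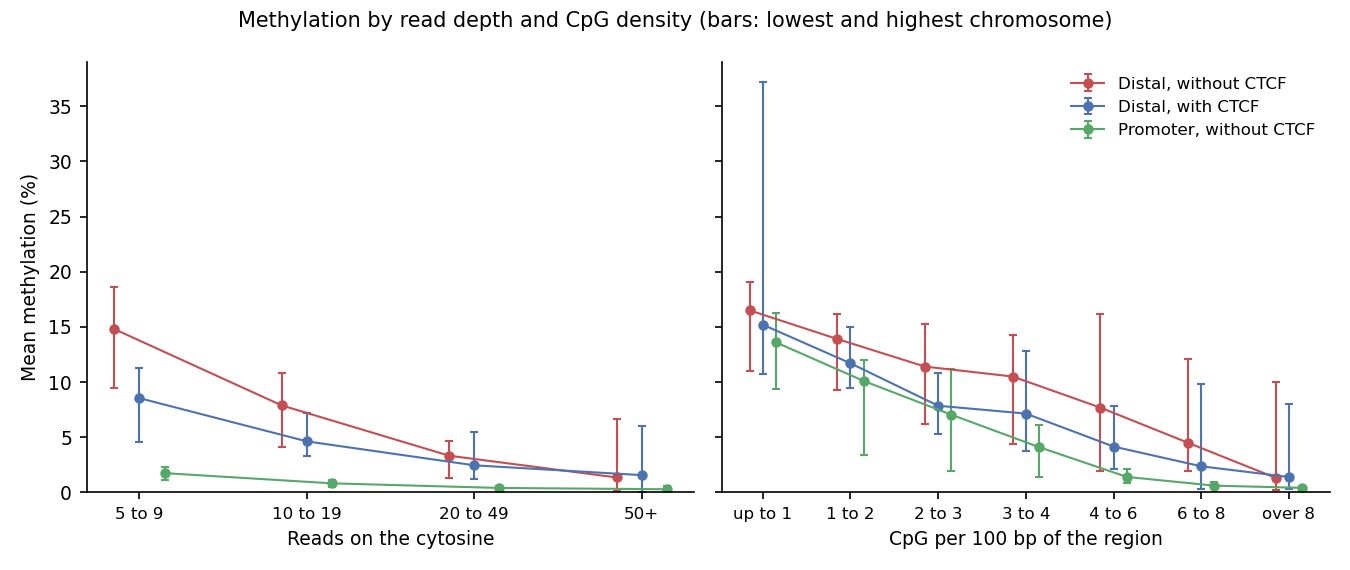
Mean methylation over cytosines (y axis, %) by reads on the cytosine (left) and by CpG per 100 bp of the region (right) for distal regions without CTCF, distal regions with CTCF and promoters without CTCF. Bars reach from the lowest to the highest chromosome mean; members fall from 14.8% to 1.35% with depth and from 16.5% to 1.31% with CpG density.

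Within the members, methylation rose away from transcription starts, toward repeats and toward region edges. It was 9.38% at 3 to 5 kb from a start, 11.5% at 10 to 20 kb, 15.8% at 50 to 100 kb and 19.3% beyond 100 kb. Members beyond 50 kb were higher than those at 3 to 5 kb on all 20 chromosomes, by 2.19 to 11.8 points. Members of which more than 50% was repeat averaged 21.1%, the others 10.7%, a difference of 10.5 points that ran from 6.73 to 12.3 over the chromosomes. The 229 measured members that were wholly repeat averaged 31.5%, from 783 cytosines. Exonic members had 8.53%, intergenic ones 11.6% and intronic ones 12.8%. From the middle of the region, where the innermost of 10 equal steps had 10.2%, the mean rose to 16.1% in the outermost step, higher on all 20 chromosomes. Median depth was 9 reads in the innermost step and 6 in the outermost, and its part in this rise was not tested. Over the same steps distal regions with CTCF rose from 5.29% to 12.2% and promoters without CTCF from 0.93% to 1.97%.

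Members that were found in fewer lists were more methylated. The mean was 20.3% in members found in none of the 8 accessibility lists, 12.1% in those found in 4 and 6.05% in those found in all 8, with median depths of 6, 7 and 12 reads. The gap between none and all, 14.3 points, lay between 10.5 and 19.7 on every chromosome. By fold enrichment the mean fell from 15.9% at up to 5 to 9.34% at 10 to 15 and 6.78% above 20. The groups also differed in depth, which rose as methylation fell, and the part of depth was not tested.

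**Figure D3:**
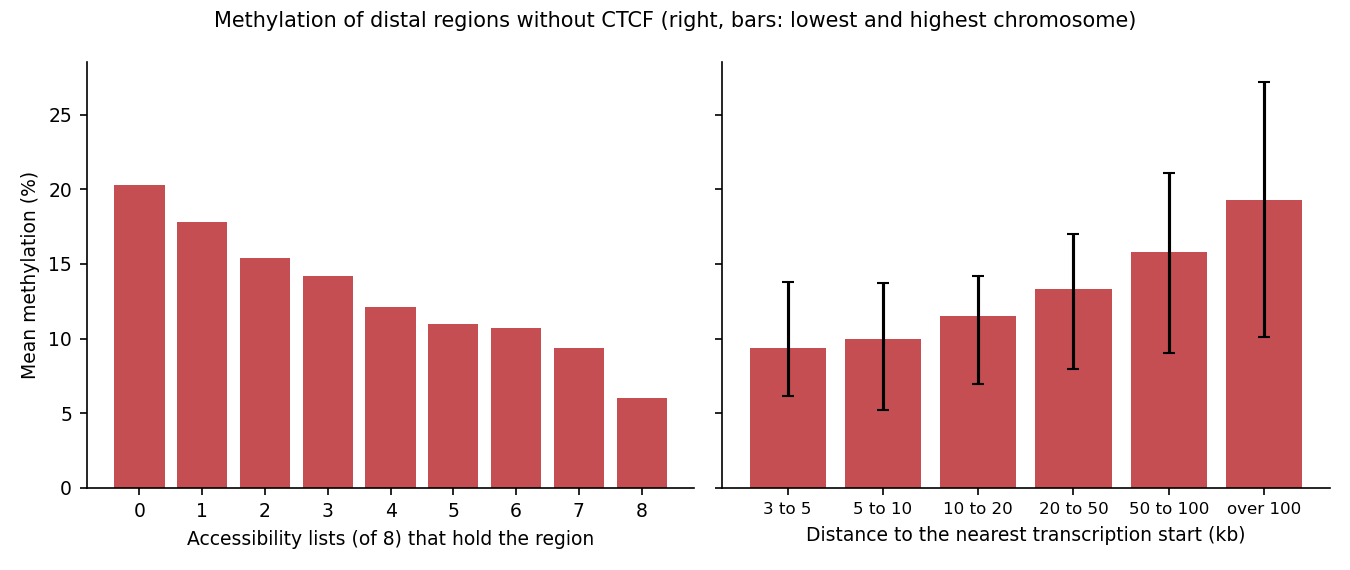
Mean methylation of distal regions without CTCF (y axis, %) by the number of the 8 accessibility lists that hold the region (left) and by distance to the nearest transcription start in kb (right). Bars on the right reach from the lowest to the highest chromosome; the mean falls from 20.3% to 6.05% with the number of lists and rises from 9.38% to 19.3% with distance.

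The 3 most methylated members by the lower end of the Wilson interval were the Cdk14 and Sik1 members shown above and 1 on chromosome 14 in intergenic DNA. The Cdk14 member, in an intron of this cyclin-dependent kinase gene, had 80.9% (Wilson interval 67.5 to 89.6), and its 7 cytosines ran from 40% to 100%. The chromosome 14 member, at chr14:107849722-107850184, had 49 of 64 reads methylated (76.6%), its 8 cytosines running from 57.1% to 100%. It had a fold of 18 and was found in all 8 lists, whereas the Cdk14 member (fold 6.66) was in none and the Sik1 member (fold 7.47) in M-ATAC replicate 2 only.

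KLF4, a zinc finger factor that binds GC-rich words of the form GGGTGTGG or GGGCGTGG and helps to hold the naive stem cell state, was compared next. Its peaks came from PeaKDEck lists that are recorded with the samples titled M-ATAC-WT, M-ATAC-Mut and KLF4-ChIP-KO; those of the first 2 groups carry KLF4 M-ChIP library names, they are taken here as KLF4 peaks and called by the sample they are recorded with, and the assignment could not be settled. M-ATAC-WT replicates 1 and 2 had a peak in 2.24% and 3.67% of the members, M-ATAC-Mut replicates in 0.166% and 0.194%, and KLF4-ChIP-KO replicates in 7.66% and 13.4%. No group overlapped another. The mean was 16.4 times higher with WT than with mutant KLF4 (2.95% ± 1.01 against 0.18% ± 0.0198, SD, n = 2 each, exact permutation p = 0.333). The knockout cells, which lack the factor, had the highest shares, 10.5% ± 4.02 (n = 2), 7.55 points above M-ATAC-WT (exact permutation p = 0.333) and 10.3 points above M-ATAC-Mut (exact permutation p = 0.333). The smallest p that 2 against 2 allows is 0.333, and adjusted over the 3 comparisons each stayed at 0.333.

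Members with peaks of the knockout cells were of higher fold and wider than the members as a whole. The medians over all members were a fold of 6.66 and a width of 257 bp, and 12.3% were found in all 8 accessibility lists. The 2257 members with a peak in both KLF4-ChIP-KO lists had a median fold of 10.2 and a median width of 400 bp. Of them 41.1% were found in all 8 accessibility lists. The 533 members in both M-ATAC-WT lists had a median fold of 9.47 and a median width of 339 bp, and 29.6% were found in all 8. Of these 533, 199 (37.3%) also had a peak in a KLF4-ChIP-KO list. Of the lists' own peaks, 30.7% and 33.2% of the KLF4-ChIP-KO peaks lay in members, 8.51% and 11.1% of the M-ATAC-WT peaks and 0.856% and 1.24% of the M-ATAC-Mut peaks. Promoters without CTCF had peaks in 6.34% and 11.5% of regions with M-ATAC-WT and in 8.69% and 11.4% with KLF4-ChIP-KO.

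**Figure D4:**
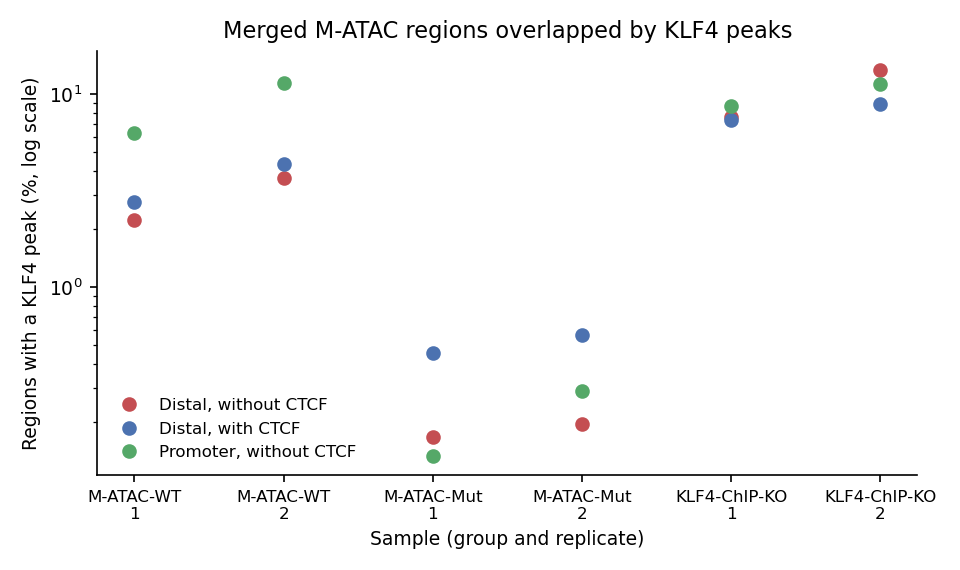
Share of regions with a KLF4 peak (y axis, %, log scale) in each KLF4 list (x axis, by the group and replicate it is recorded with), by kind of region, one point per sample. For distal regions without CTCF the KLF4-ChIP-KO lists are highest (7.66% and 13.4%), M-ATAC-WT lists lie between (2.24% and 3.67%) and M-ATAC-Mut lists are lowest (0.166% and 0.194%).

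To set aside peaks shared with the knockout, a WT KLF4 set was made of stretches present in both M-ATAC-WT lists that no KLF4-ChIP-KO peak touched (2237 stretches). It overlapped 331 members (0.929%, Wilson interval 0.835 to 1.03), below the 1.65% of all M-ATAC regions and the 2.73% of promoters without CTCF, and near the 0.885% (0.653 to 1.2) of distal regions with CTCF. A mutant set made in the same way overlapped 6 members (0.0168%), against 15 of all M-ATAC regions (0.0225%). Of the 331 members, 163 were intergenic, 136 intronic and 32 touched an exon. A GGGTGTGG or GGGCGTGG word lay in the summit window of 180 of them (54.4%), against 9.59% of the other members. In promoters without CTCF the corresponding shares were 30.5% and 10.9%, and in distal regions with CTCF 22% and 4.58%. None of the 15 M-ATAC regions of the mutant set, the 6 members among them, held either word.

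Members with WT KLF4 were less methylated than the others. Their 3243 cytosines in 297 regions averaged 6.17%, against 11.9% on 147130 cytosines of the other members, and the difference of -5.78 points was negative on 18 of 20 chromosomes. They were also deeper (a median of 10 reads against 8), more CpG-dense (1.65 against 0.976 per 100 bp) and of higher fold (8.57 against 6.66). Within depth classes the means were 8.7% against 14.9% at 5 to 9 reads, 4.62% against 7.97% at 10 to 19 and 1.97% against 3.38% at 20 to 49. At 50 reads or more, with 16 cytosines in members with WT KLF4, the order turned, with 2.89% against 1.3%. Within CpG classes it was 11.2% against 16.5% at up to 1 per 100 bp and 5.75% against 11.5% at 2 to 3. These values come from WT KH2 cells, in which the M-ATAC reads were made, and not from the cells that re-expressed KLF4.

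The 3 members of highest fold with the WT KLF4 set lay in an intron of Fgfr2, a receptor for fibroblast growth factors, in an intron of Mid1, a ubiquitin ligase gene at the end of chromosome X, and upstream of Fer, a tyrosine kinase gene. Their folds were 32.6, 31.4 and 22.3, and they had 23 of 611, 39 of 660 and 3 of 986 methylated reads (3.76%, 5.91% and 0.304%). In the Fgfr2 member plus-strand cytosines had 8 reads each and minus-strand ones up to 154. In the Mid1 member plus-strand cytosines had up to 111 reads and minus-strand ones up to 15. The percentages of these members thus rest mostly on 1 strand. The Fer member was found in all 8 accessibility lists. The Mid1 member was found in 6 of them, and the Fgfr2 member in the 4 M-ATAC lists and in no M-ATAC-NC or ATAC list. The Fgfr2 member also had a peak in both M-ATAC-Mut lists. None of the 3 windows held a KLF word, and the Fgfr2 window held GCGCATGC, the word of NRF1.

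Octamer, SOX, ESRRB, AP-1 and GATA words were more frequent at the summits of the members than over all regions. The octamer ATGCAAAT, the word of OCT4 and other POU factors, lay in 4.68% of the member windows (Wilson interval 4.46 to 4.9), in 3.51% of all windows, in 1.51% of those of distal regions with CTCF and in 2.49% of those of promoters without CTCF. The SOX words ACAAAG and ACAATG lay in 27.6% and 19.2% of member windows, against 21.6% and 14.4% of all. TCAAGGTCA, the word of the orphan nuclear receptor ESRRB, lay in 1.6% against 1.15%, and the AP-1 word TGANTCA in 17.1% against 12.8%. The GATA word GATAAG lay in 6.47% against 5.22%. The KLF words went opposite ways: GGGTGTGG lay in 7.4% of the member windows and 6.09% of all, and GGGCGTGG, which holds a CpG, in 2.9% and 4.15%. GCGCATGC and the E-box CACGTG, both with a CpG, were rarer in members too, at 0.407% against 1.13% and 2.55% against 3.78%.

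**Figure D5:**
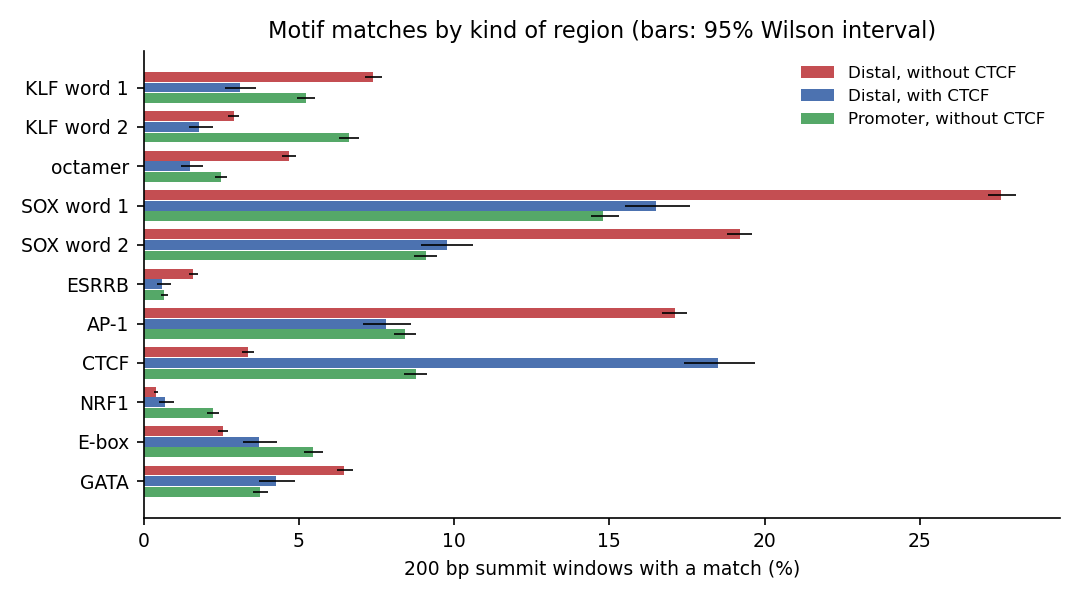
Share of 200-bp summit windows with at least 1 match (x axis, %) for each word searched (y axis), by kind of region, with 95% Wilson intervals. KLF word 1 is GGGTGTGG, KLF word 2 GGGCGTGG, SOX word 1 ACAAAG and SOX word 2 ACAATG; distal regions without CTCF hold the most SOX (27.6%), AP-1 (17.1%) and octamer (4.68%) words and the fewest CTCF words (3.36%).

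Part of this went with base composition. Among windows of 40% to 50% GC the octamer lay in 6.4% of member windows and 7.04% of promoter windows, and at 50% to 60% in 2.8% and 2.26%. Promoters were also higher at up to 40%, with 7.42% against 7.3%, and above 60%, with 0.755% against 0.452%. Distal regions with CTCF had 2.92% at 40% to 50% GC and 1.01% at 50% to 60%, but above 60% they had 0.771%, more than the members. AP-1 words stayed more frequent in members than in promoters in each GC class, by 16.8% against 11.4% at 50% to 60%, and so did ACAATG, at 24% against 20.8% at 40% to 50%. Words were also unevenly spread within the members. The octamer lay in 6.06% of members found in all 8 accessibility lists and 3.97% of those found in none, and ACAAAG in 34.7% and 24.9%. AP-1 went the other way, with 13.5% and 16.6%. Members with an AP-1 word were more methylated, 15.6% against 11.2%, on all 20 chromosomes, while members with an octamer had 11.3% against 11.8%, with 10 chromosomes on each side.

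Nearest genes were read from GENCODE in 2 ways, by the nearest start of any gene, and by the nearest start of a protein-coding gene, since many of the nearest starts belong to predicted or non-coding genes. By any start, the 14848 nearest genes in the expression table lay at 0.09 TPM in the median (0.08 to 0.11 by order statistics). All 47606 genes of the expression table had a median of 0 TPM (0 to 0.01). Of the nearest genes 37.3% were at 1 TPM or more, against 28.2% of all. By protein-coding starts 10371 of 21951 genes (47.2%) were nearest to at least 1 member. The expression of these protein-coding genes in WT mESC was higher than that of protein-coding genes without a member. The median was 5.35 TPM (interval 4.93 to 5.81, 10303 genes in the table), against 1.03 TPM (0.86 to 1.23) for 11304 protein-coding genes nearest to no member. Genes nearest to 1 member had a median of 3.71 TPM, those nearest to 2 to 4 had 5.72, those nearest to 5 to 9 had 6.18 and those nearest to 10 or more had 8.17. By distance the median fell from 9.34 TPM (8.58 to 10.3) at 3 to 5 kb to 5.62 at 20 to 50 kb and 1.67 (1.27 to 2.18) beyond 100 kb. Genes nearest to distal regions with CTCF had 6.6 TPM and those nearest to promoters without CTCF 10.3. The 315 genes nearest to members with WT KLF4 had 10 TPM (7.23 to 14.1). Without replicates in the merged column, the intervals give the uncertainty of each median over the genes counted, and no spread between samples.

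The genes nearest to the most members, by any start, were Pde4d with 39, Rbfox1 with 24 and Tns3 with 22. Pde4d, a phosphodiesterase that degrades cyclic AMP, spans 1503.5 kb, and 37 of its members were intronic. It had 8.83 TPM, and its members had folds of 2.64 to 21.8 and a mean methylation of 15.9%. Rbfox1, a neuronal splicing regulator of 1526.2 kb, was at 0.01 TPM, and 4 of its 24 members were found in all 8 accessibility lists. Tns3, which encodes the focal adhesion protein tensin 3, is shorter at 233 kb and had 31.2 TPM, and 10 of its 22 members were in all 8 lists.

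Genes of stem cell factors were often nearest to several members. Of the 20 genes of the pluripotency list, 17 (85%) were nearest to at least 1 member by protein-coding start, against 47.2% of all protein-coding genes, and 11 (55%) to at least 5, against 10.6%. In all they had 153 members, with 24 for Sox2, 18 for Klf5, 17 for Tbx3, 13 for Nr5a2 and 12 each for Esrrb and Tfcp2l1. Neither this list nor the other gene lists described below were matched for the length of DNA around their genes. Stat3, Tdgf1 and Utf1 had none, although Tdgf1, the Nodal co-receptor, was at 942 TPM. By the nearest start of any gene 12 of the 20 had a member, against 7800 of the 21951 protein-coding genes. Sox2, Klf4 and Tbx3 then had none, since predicted and non-coding genes lay nearer.

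Members near Pou5f1, Nanog and Sox2 carried few methylated reads. The single Pou5f1 member, 15.3 kb upstream of this OCT4 gene, had a fold of 9.08 and was found in M-ATAC replicates 2, 3 and 4 and in no M-ATAC-NC or ATAC list. This member had 1 methylated read among 42 (Wilson interval 0.422% to 12.3%). The Nanog member of highest fold by nearest start, 8.28 kb downstream of that homeobox gene's start, had a fold of 7.58, and no methylated read among 28 (0% to 12.1%). Both intervals include the 9.09% pooled over all members, so lower methylation than in members as a whole is not shown for these. A stronger region at 4.28 kb from Nanog, whose nearest start was that of Gm10224, had a fold of 10.6, was found in all 8 lists and had 21 methylated reads among 847 (2.48%). The strongest Sox2 member, 94.8 kb from Sox2 with a fold of 20.9, was found in all 8 lists and had 1 methylated read among 63. The last 2 were chosen after their values were seen, because their nearest starts were those of other genes. The Esrrb member of highest fold (12), within an Esrrb intron, was in 7 lists and had 12 methylated reads among 100.

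Among the other factors of the list the members differed widely. The Prdm14 member shown above, 22.9 kb downstream of the start of this regulator of the naive state, was the only one of the stem cell factor members named here by nearest start that lay in the WT KLF4 set. It had a fold of 14.4, a GGGTGTGG word 10 bp left of the summit and 2 methylated reads among 317 (0.631%) on 18 cytosines. The Zfp42 member, 13.6 kb upstream of this gene also known as Rex1, held the same word at 2 places, had a fold of 18.3 and was found in all 8 lists. Its 16 cytosines had 37 methylated reads among 188 (19.7%, Wilson interval 14.6 to 25.9). It had a peak in M-ATAC-WT replicate 1 and in both KLF4-ChIP-KO lists. The Sall4 member, 22.9 kb upstream of this zinc finger gene, had a fold of 19.6, 2 ACAAAG words on opposite strands and 12 methylated reads among 104. The Klf2 and Klf5 members, of fold 11.7 and 14.5, were in all 8 lists, with 2 methylated reads of 133 and 9 of 260. The Nr0b1 member, 4.14 kb upstream of this nuclear receptor gene, was in 5 lists and had 7 methylated reads among 25. The weakest were the Tfcp2l1 and Nr5a2 members by nearest start, folds 3.74 and 6.28, found in no list, each with 2 measured cytosines.

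Over all members assigned to a gene by protein-coding start, pooled methylation was 2.46% at Tbx3, 1.26% at Prdm14 and 5.38% at Sox2, and 20.6% at Zfp42 and 13.3% at Nr5a2. Genes of LIF, BMP and FGF signalling, which act on the same state, were described in the same way. Of the 15 genes of that list 14 (93.3%) were nearest to a member, against 47.2% of all protein-coding genes, and 7 (46.7%) to at least 5, against 10.6%. Id2 and Spry2, targets of BMP and FGF signals, had 13 each, Lifr, the LIF receptor subunit, and Spry4 had 10 each, and Socs3, the feedback inhibitor of LIF signalling, had 9. The 9 Socs3 members had 30 methylated reads among 2088 on 169 cytosines (1.44%), and those of Lifr 64 among 993 (6.45%). The single Lefty2 member, near a Nodal antagonist gene, had 1 methylated read among 980. Nodal had no member. By the nearest start of any gene 10 of the 15 signalling genes had a member, against 7800 of the 21951 protein-coding genes.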

How the data were processed

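Reads were aligned to mm10 by the authors with Bowtie2 and, after bisulfite conversion, Bismark 0.18.1 (Trim Galore 0.4.4, SAMtools 1.3, per the labels). The authors called peaks with MACS2, and the deposited lists give a score, a ratio (fold enrichment at the summit) and −log10 p and q values. The deposited KLF4 lists, made with PeaKDEck, give p-values. The deposited methylation table gives read counts and percent per cytosine in the merged M-ATAC peaks, and the deposited expression table TPM of merged RNA-seq. No depth per sample is given in these files. Here, rows of the same region were merged, keeping the strongest summit, cytosines with at least 5 reads were counted once, and overlaps of at least 1 bp were taken. Sequences were read from GRCm38.p6 with pyfaidx 0.9.0.4. KLF4 shares were compared between samples by two-sided exact permutation tests (Python 3.11.15), with Benjamini-Hochberg adjustment, and the code was tested on simulated data. Alternatives changed the distance, overlap, read minimum, motif window and gene assignment, or left out single samples. Members, lists and words were chosen with earlier results of these data known. By rule the text names the strongest member nearest each pluripotency gene, the 3 strongest in all lists, the 3 strongest with WT KLF4, the 3 most methylated, and the 3 genes with most members. An item that the rule names is not reported here. No list recorded under the KLF4 M-ChIP samples was analysed here, although the KLF4 lists used may be theirs by library name.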

Additional observations from a re-analysis of the deposited data

How the results depend on the processing

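The number of members stayed within 1.5 times 35628 under each other definition, from 29383 (a −log10 q of at least 5) to 40913 (1 kb from a start). Mean methylation moved from 11.8% to 15.8% with at least 1 read, to 6.72% with at least 10 reads and to 9.09% when reads were pooled, because deeper cytosines were less methylated; counting each summit row (10.9%) moved it by less than the spread over chromosomes. Cytosines whose surrounding 31 bp occur once in the reference gave 11.5%, and members without a peak in any CTCF list 11.9%; these and the fold range of 5 to 10 were chosen after seeing the data. The difference with WT KLF4 ranged from -6.87 to -3.06 points. The median of the nearest genes, 0.09 TPM by any start, became 15.4 among genes of at least 1 TPM, 5.35 by protein-coding start and 0.14 within 50 kb. The octamer difference from all regions, 1.17 points, was 0.745 with 100-bp and 1.61 with 400-bp windows. Leaving out each sample, the M-ATAC minus M-ATAC-NC difference ran from -4.79 to 0.14 points, changing sign without M-ATAC-NC replicate 2, and the M-ATAC minus ATAC difference from -0.0225 to 8.49, changing sign without ATAC replicate 1. The replicate numbers are shared between groups but no source says which samples share a preparation, and a replicate block gave -4.34, 2.21 and 6.56 points for the 3 accessibility comparisons, -1.05 for CTCF, 2.77, -7.55 and -10.3 for KLF4 and 8.6 and -21.8 for recovery, and for KLF4 p = 0.5 by the exact sign-flip permutation test, the smallest that 2 pairs allow. The other alternatives kept the direction of every comparison.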

Other observations

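Genes of later stages were nearest to members as well. Of the 8 genes of the primed state, 7 (87.5%) were nearest to at least 1 member by protein-coding start, against 47.2% of all protein-coding genes. Sox4 had 22 members, Sox11 15 and Lef1 8, while Fgf5, the marker of the primed epiblast, had none. Of 14 lineage genes 11 (78.6%) had a member and 4 (28.6%) at least 5, against 47.2% and 10.6% of all protein-coding genes. Foxa2, the endoderm factor, had 12 and Sox1, the neural one, 9. Foxa2 was at 4.04 TPM, and its members had 119 methylated reads among 580 (20.5%). The members of Sox1, at 5.37 TPM, had 14 among 468 (2.99%), and those of Sox17, at 9.09 TPM, 14 among 779 (1.8%). Gata4, Mixl1 and Cdx2 had none. By the nearest start of any gene 5 of the 14 lineage genes and 6 of the 8 primed genes had a member. Among all 21951 protein-coding genes 7800 had one in that way, a share near that of the lineage genes.

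Of the 8 genes of the methylation machinery 5 (62.5%) had a member and 1 (12.5%) at least 5, against 47.2% and 10.6% of all protein-coding genes. Tet2, which oxidises methylcytosine, had 15, of which 5 were found in all 8 accessibility lists, with 29 methylated reads among 1026 (2.83%). The methyltransferase gene Dnmt3a had 4 members of fold 4.17 to 5.7, with 20 methylated reads among 153 (13.1%), and Dnmt3b 2. Dnmt3l, Uhrf1 and Tet3 had none. By the nearest start of any gene 5 of the 8 had a member too, against 7800 of the 21951 protein-coding genes.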
